A study of Sus scrofa with 14 samples.

Results

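The major histocompatibility complex (MHC) class I genes of the pig and the genes that load their product with peptide were followed in meniscus, the fibrocartilage pad of the knee. The genes were chosen by name: every swine leukocyte antigen gene whose symbol is SLA- plus a digit, together with B2M, TAP1, TAP2, TAPBP, PSMB8 and PSMB9. Of the 15 genes so named in the RefSeq gene table, 9 had a probe matched by RefSeq accession, with 24 probes in all, out of 2389 genes named on the array. SLA-1, SLA-2, SLA-4, SLA-11, TAP2 and TAPBP had no such probe and were not analysed here. The OA group was 7 male Wuzhishan pigs whose meniscus was taken 24 weeks after anterior cruciate ligament surgery, and the sham group was 7 male Wuzhishan pigs sampled 24 weeks after a sham operation. All were healthy adults of 15 to 18 kg and 6 to 7 months of age before assignment, and no drug or genetic change is named for either group. The labels do not say what was done to the ligament, and each array was taken as 1 animal because 14 animals were described.

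An MHC class I molecule is a heavy chain, encoded in the pig by an SLA gene, held together with beta-2-microglobulin, the product of B2M. Peptides cut by the proteasome are pumped into the endoplasmic reticulum by the TAP transporter and loaded there, and the complex shows them at the cell surface to CD8 T cells and natural killer cells. PSMB8 and PSMB9 are catalytic subunits that replace their constitutive counterparts in the immunoproteasome, and interferons are known to raise most genes of this pathway. In the gene table TAP2, PSMB8, TAP1 and PSMB9 follow each other, SLA-8, SLA-7 and SLA-6 follow each other on the same chromosome, and B2M lies on another one. The swine class I genes resemble each other closely and vary between animals, so a probe named for one of them may also bind the transcripts of another.

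The values are log2 signals relative to the 75th percentile of the same array, so that 0 marks that percentile and a step of 1 is a doubling. Single-colour arrays were brighter in the sham group: the raw 75th percentile was 156 to 492 on OA arrays and 418 to 622 on sham arrays, and 67.9 to 89.3% of probes were well above background on OA arrays, against 89.7 to 95.2% on sham arrays. Arrays that shared a scan start were taken as 1 slide, and no slide held both groups. The sham arrays lay on slides 1 and 2, and OA 1 on slide 3. OA 2 to OA 5 lay on slide 4, and OA 6 and OA 7 on slide 5. All sham arrays were scanned on day 1, OA 1 on day 2 and the other OA arrays on day 3. Slide and group, and likewise scan day and group, cannot be told apart. Of 14 meniscus and cartilage marker genes, 7 carried a tested probe, and those 7 were well above background on all 14 arrays, with a mean signal of 71715 for the aggrecan gene ACAN and 90681 for the decorin gene DCN. Defining genes such as COL2A1, COMP and PRG4 were not analysed here.

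None of the 24 class I probes differed between OA and sham meniscus at an adjusted p of 0.05. Some of them, such as those of PSMB9, differed several-fold between arrays of the same group, whereas those of B2M varied less. By limma with Benjamini-Hochberg adjustment over 38813 tested probes, 0 of 24 passed, against 3.73% of all tested probes (2.88% higher and 0.848% lower in OA), and the adjusted p of the 24 ran from 0.22 to 0.945. At an unadjusted p under 0.05 there were 2 of 24 (8.33%), against 19.6% of all tested probes. Taking 1 probe a gene, 0 of 9 genes passed against 3.23% of 2258 named genes, and 0 of 9 had an unadjusted p under 0.05 against 15.3%. By sign 8 probes were higher and 16 lower in OA, with a median log2 difference of -0.17 against -0.05 over all tested probes. For no probe were the OA arrays all above or all below the sham arrays, against 1.73% of tested probes. In whole tissue, fewer cells of a type and less RNA per cell cannot be told apart. The 95% intervals were between 0.35 and 1.75 wide on either side, and for 12 of the 24 probes the interval included a 2-fold difference in one or the other direction.

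**Figure D1:**
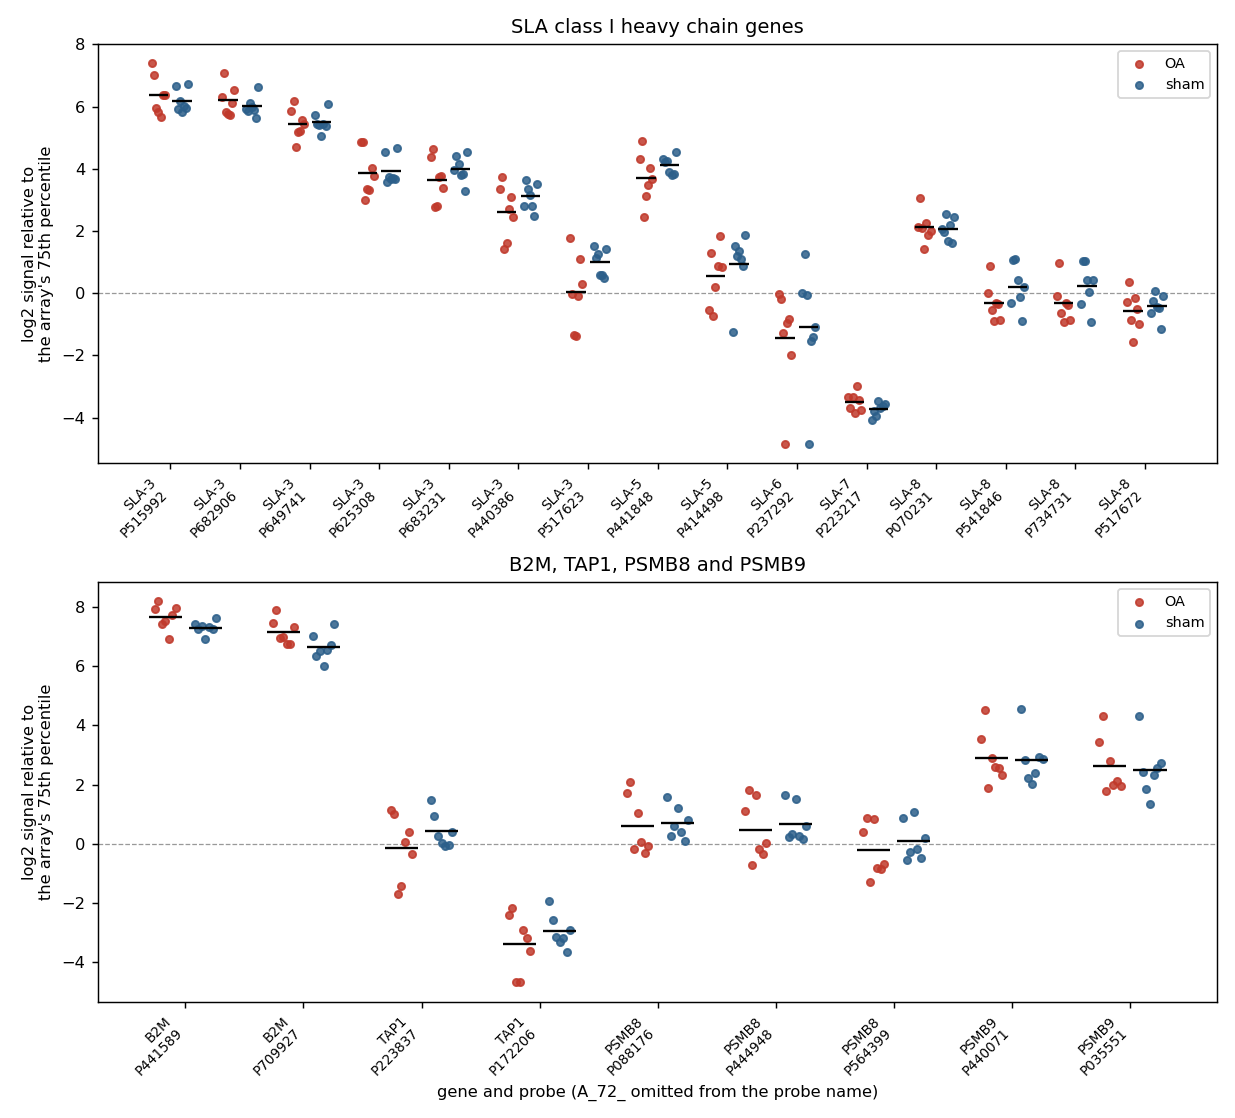
Log2 signal relative to the array's 75th percentile for the 24 probes, with one point per array (OA red, left; sham blue, right) and the group mean as a bar. The groups overlap for every probe, and the SLA-6 probe has 1 array of each group, near -4.85, far below the others.

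SLA-3 is one of the classical class I heavy chain genes, which present peptides to CD8 T cells, and was read by 7 probes. On the probe with the highest mean signal, A_72_P515992, the OA arrays ran from 5.67 through a median of 6.37 to 7.40, and the sham arrays from 5.83 through 6.02 to 6.73. The OA arrays thus reached both above and below the sham arrays, with 2 of 7 above the highest and 2 of 7 below the lowest. The difference was 0.19 ± 0.27 (SE, n = 7 per group, limma adjusted p = 0.729), with a 95% interval of -0.37 to 0.75, and without OA 1 it was 0.02. A_72_P682906 stood at 0.19 as well, and at 0.04 without OA 2, A_72_P649741 and A_72_P625308 at -0.06 each, A_72_P683231 at -0.36 and A_72_P440386 at -0.49. The remaining probe, A_72_P517623, ran from -1.39 through -0.03 to 1.79 on OA arrays and from 0.50 through 1.12 to 1.501 on sham arrays. Here 5 of 7 OA arrays lay below the lowest sham array, while OA 1 was the highest array of all. The difference of -0.96 ± 0.42 had the smallest p of the 24 probes, but did not pass (limma adjusted p = 0.22). Before adjustment its limma p was 0.0365. Within OA this probe averaged 1.79 on slide 3, -0.71 on slide 4 and 0.68 on slide 5, against 1.12 and 0.83 on the sham slides 1 and 2. Without slide 4 its value was 0.05, with the sign turned.

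The 7 SLA-3 probes followed each other across arrays to unequal degrees. After each group's mean was subtracted, the 21 pairs of them had a Pearson r over 14 arrays between 0.408 and 0.961, with a median of 0.723. Which SLA transcripts each probe bound was not tested, since the probe sequences were not used here.

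SLA-5, a further class I gene of the same cluster, had 2 probes that followed each other only weakly across arrays. A_72_P441848 ran from 2.44 through 3.68 to 4.88 on OA arrays and from 3.81 through 4.23 to 4.53 on sham arrays, with 4 of 7 OA arrays below the lowest sham array and 1 above the highest. Its difference was -0.41 ± 0.30 (SE, n = 7 per group, limma adjusted p = 0.472). A_72_P414498 ran from -0.74 through 0.84 to 1.84 on OA arrays and from -1.24 through 1.18 to 1.88 on sham arrays, and all 7 OA arrays fell within the sham range. It also stood at -0.41, with an SE of 0.46 and an adjusted p of 0.665. Low values on this probe came from OA 3 at -0.74, OA 1 at -0.53 and sham 1 at -1.24, and on the first probe OA 1 and sham 1 were among the high arrays of their group, at 4.32 and 4.31. The pair had an r of 0.326 over 14 arrays.

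SLA-6, SLA-7 and SLA-8 are non-classical class I genes, less polymorphic relatives of the classical ones. The single SLA-6 probe, A_72_P237292, ran from -4.85 through -0.95 to -0.03 on OA arrays and from -4.86 through -1.10 to 1.26 on sham arrays. OA 4 and sham 4 alone lay below -2, and the spot of OA 4, with a raw signal of 5.41, was not well above background, so its level there is only a bound. The raw signal of sham 4 was 20.9, against 204 to 999.9 on the other 6 sham arrays. The within-group standard deviation of this probe, 1.79, was larger than that of 99.8% of all tested probes. Its difference between groups was -0.34 ± 0.83 (SE, n = 7 per group, limma adjusted p = 0.857).

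SLA-7 was read by A_72_P223217, a dim probe with a mean raw signal of 30.01 that was nevertheless marked well above background on all 14 arrays. Its values ran from -3.86 through -3.44 to -3.00 on OA arrays and from -4.07 through -3.70 to -3.47 on sham arrays, and 4 of 7 OA arrays exceeded the highest sham array. The difference was 0.25 ± 0.17 (SE, n = 7 per group, limma adjusted p = 0.426). With normexp background correction the same probe gave 0.69 and passed (adjusted p = 0.00107; over its settings the adjusted p ran up to 0.866), and that correction called 18409 of the 38813 tested probes.

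SLA-8 had 4 probes. A_72_P070231 ran from 1.42 through 2.08 to 3.07 on OA arrays and from 1.62 through 2.06 to 2.55 on sham arrays, with a difference of 0.04 ± 0.23 (SE, n = 7 per group, limma adjusted p = 0.943). A_72_P541846 and A_72_P734731 stood at -0.52 ± 0.33 and -0.57 ± 0.33, and on each of them 6 of 7 OA arrays lay below the sham mean (limma adjusted p = 0.407 and 0.365). A_72_P517672 stood at -0.14 ± 0.27. The 6 pairs of these probes had r between 0.671 and 0.992, so they followed each other across arrays. The sign of the group difference was not shared by all 4.

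B2M, the light chain common to all class I molecules, was read by 2 probes and had the values with the most even direction. A_72_P441589 ran from 6.93 through 7.72 to 8.20 on OA arrays and from 6.92 through 7.33 to 7.62 on sham arrays, and 4 of 7 OA arrays exceeded the highest sham array. Its difference was 0.36 ± 0.19 (SE, n = 7 per group), with a 95% interval of -0.04 to 0.77 and a limma adjusted p of 0.31. A_72_P709927 ran from 6.76 through 7.00 to 7.90 on OA arrays and from 6.02 through 6.55 to 7.43 on sham arrays, and all 7 OA arrays lay above the sham mean. It stood at 0.50 ± 0.23 with an interval of 0.01 to 1.00, and did not pass (limma adjusted p = 0.246). Before adjustment its limma p was 0.0457. Both values kept their sign in every alternative run, and over these the adjusted p did not go below 0.139. Under quantile normalization, and likewise in the authors' table, the first of them was 0.13, and with normexp 0.14.

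TAP1 encodes a chain of the peptide transporter. A_72_P223837 ran from -1.70 through 0.07 to 1.14 on OA arrays and from -0.07 through 0.27 to 1.47 on sham arrays. OA 3 and OA 4, at -1.70 and -1.43, lay well below the lowest sham array, whereas OA 1 and OA 2, at 1.14 and 0.99, were among the highest. The difference was -0.55 ± 0.42 (SE, n = 7 per group, limma adjusted p = 0.501). It was -0.03 without slide 4, which held OA 3 and OA 4, -0.16 with array brightness as a covariate, and between -0.76 (without OA 1) and -0.29 (without OA 3) with an array left out. A_72_P172206 stood at -0.42 ± 0.39 and was not well above background on OA 3 and OA 4, so its low end is a bound. Across all 14 arrays the 2 probes followed each other, with r = 0.975.

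PSMB8, a catalytic subunit of the immunoproteasome also called LMP7, had 3 probes. A_72_P088176 ran from -0.31 through 0.05 to 2.08 on OA arrays and from 0.09 through 0.59 to 1.58 on sham arrays, with 4 of 7 OA arrays below the lowest sham array and 2 above the highest. Its difference was -0.09 ± 0.38 (SE, n = 7 per group, limma adjusted p = 0.925), and A_72_P444948 and A_72_P564399 stood at -0.19 ± 0.41 and -0.31 ± 0.37. The 3 pairs of probes had r between 0.912 and 0.987.

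PSMB9, the subunit also called LMP2, had 2 probes with an r of 0.979. A_72_P440071 ran from 1.89 through 2.59 to 4.53 on OA arrays and from 2.01 through 2.85 to 4.55 on sham arrays. OA 2 and sham 1 gave these highest values, and 6 of 7 OA arrays fell within the sham range. The difference was 0.07 ± 0.41 (SE, n = 7 per group, limma adjusted p = 0.945), and that of A_72_P035551 was 0.12 ± 0.45. The sign of PSMB9 is not settled: under quantile normalization A_72_P440071 stood at -0.01.

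**Figure D2:**
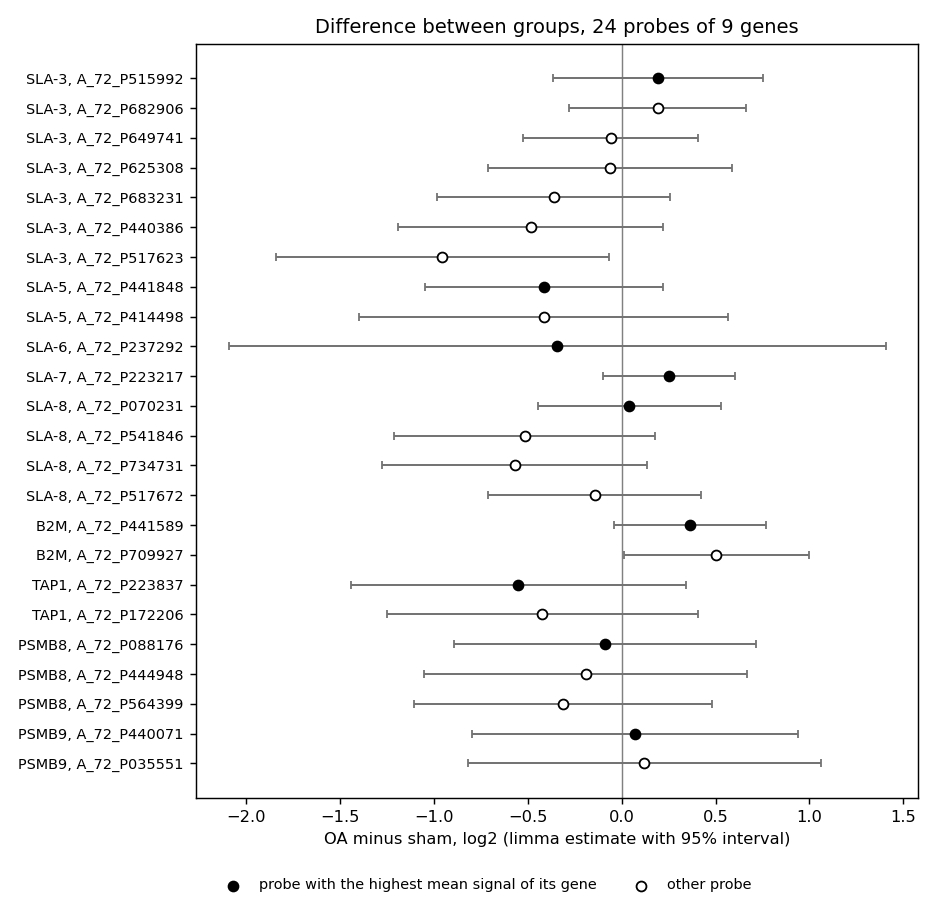
OA minus sham on the log2 scale for each of the 24 probes, as the limma estimate with its 95% interval. Filled points mark the probe with the highest mean signal of each gene. The intervals of A_72_P517623 (SLA-3) and A_72_P709927 (B2M) exclude 0 before adjustment, and neither probe passed after it.

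What varied was the level between arrays of the same group. With 1 array per animal, differences between animals and differences between arrays cannot be told apart. The within-group standard deviation of the 24 probes had a median of 0.68, against 0.45 over all tested probes. It exceeded that overall median for 18 of the 24, and for 8 it was larger than in 90% of tested probes: both TAP1 probes were at 0.89 and 0.82, both PSMB9 probes at 0.86 and 0.94, PSMB8 A_72_P444948 at 0.85, SLA-3 A_72_P517623 at 0.88, SLA-5 A_72_P414498 at 0.98 and SLA-6 at 1.79. B2M varied less, at 0.33 and 0.44. For most probes the standard deviation was larger on OA than on sham arrays, as for SLA-3 A_72_P517623 (1.17 against 0.43) and TAP1 A_72_P223837 (1.11 against 0.58). It was larger on sham arrays for SLA-5 A_72_P414498, SLA-6, SLA-8 A_72_P541846 and A_72_P734731, and B2M A_72_P709927. The part of slide and array brightness in this was not tested. PSMB9 A_72_P440071 spanned 6.34-fold over the 14 arrays and TAP1 A_72_P223837 8.97-fold.

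Some of the pathway's genes varied together across arrays. With 1 probe a gene and each group's mean subtracted, 27 of the 36 pairs among the 9 genes had a positive Pearson r over the 14 arrays. Leaving out SLA-7, 27 of 28 pairs were positive, with a median of 0.548 and a range from -0.02 to 0.877, while all 8 pairs with SLA-7 were below 0. No pair with SLA-7 or SLA-8 passed the test that follows. After Benjamini-Hochberg adjustment over the 36 pairs, 7 pairs had a two-sided permutation p under 0.05 by Pearson's r and 5 by Spearman's rho (100000 resamples within groups). In each pair SLA-5 entered by A_72_P441848 alone, and its other probe followed that one at an r of only 0.326. On the other probe OA 1 and sham 1 were low, at -0.53 and -1.24, where TAP1 was high, at 1.14 and 1.47. Pairs with that probe were not computed. SLA-5 and TAP1 gave the closest pair, with r = 0.877 (permutation adjusted p = 0.00864) and rho = 0.895 (permutation adjusted p = 0.0027). Within the groups r was 0.931 on OA arrays and 0.639 on sham arrays, and without the 2 arrays farthest from the median of SLA-5 it was 0.827. SLA-3 and B2M, the heavy and the light chain, gave r = 0.813 (permutation adjusted p = 0.0326) and rho = 0.943 (permutation adjusted p = 0.00072), with 0.811 on OA arrays, 0.825 on sham arrays and 0.815 without the 2 farthest arrays.

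The other 5 pairs that passed by r were SLA-3 with SLA-5, SLA-6 with TAP1, TAP1 with PSMB9, PSMB8 with PSMB9, and SLA-5 with PSMB9. In every pair the 2 farthest arrays were those farthest from the median of the first-named gene alone. In the pairs with PSMB9 this kept sham 1, where PSMB9 lay 1.72 above its group's mean. Values without sham 1 were not computed for these pairs. PSMB8 and PSMB9, partners in the immunoproteasome, gave r = 0.739 (permutation adjusted p = 0.0387) and rho = 0.538 (permutation adjusted p = 0.177), with 0.923 on OA arrays and 0.459 on sham arrays; without the 2 farthest arrays r was 0.558. TAP1 and PSMB9, neighbours in the gene table, gave r = 0.713 (permutation adjusted p = 0.0387) and rho = 0.648 (permutation adjusted p = 0.0947), with 0.70 on OA arrays and 0.828 on sham arrays; without the 2 farthest arrays r was 0.652. SLA-3 and SLA-5 gave r = 0.771 (permutation adjusted p = 0.0439) and rho = 0.846 (permutation adjusted p = 0.017), and 0.663 without the 2 farthest arrays. SLA-6 and TAP1 gave r = 0.633 (permutation adjusted p = 0.0457) and rho = 0.78 (permutation adjusted p = 0.017), and 0.639 without them. That of SLA-5 and PSMB9, at 0.665 (permutation adjusted p = 0.047; rho = 0.556, permutation adjusted p = 0.177), dropped to 0.353 without the 2 farthest arrays and so rested on them. All 7 pairs were positive in each group, and with each slide's mean subtracted instead, over the 13 arrays that share a slide with another, their r was at least 0.604. SLA genes can share transcripts on a probe, so a correlation between 2 of them may count the same RNA.

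**Figure D3:**
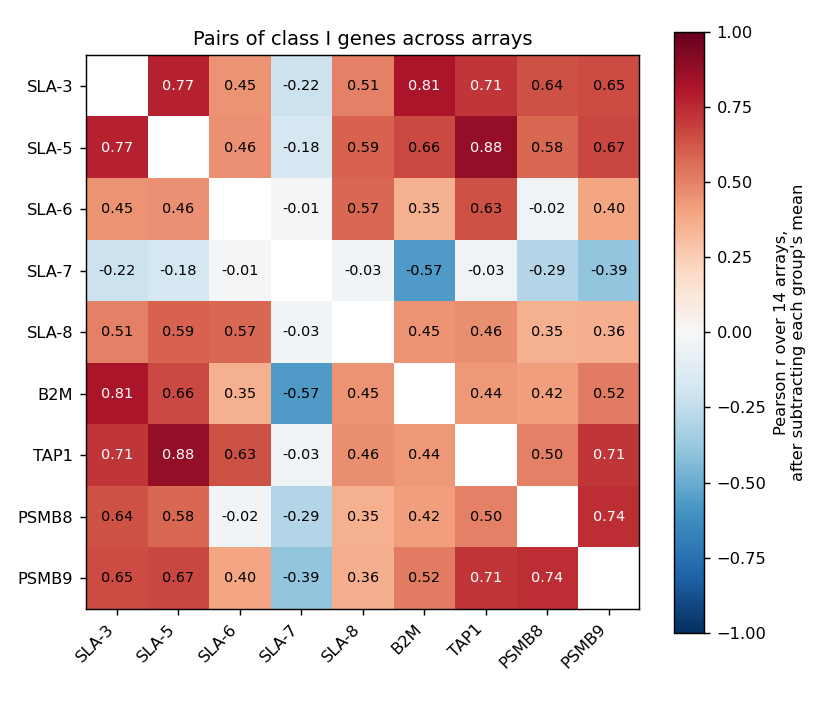
Pearson r over 14 arrays for each pair of the 9 genes, 1 probe a gene, after subtracting each group's mean. The other 8 genes form a mostly positive block that reaches 0.88 for SLA-5 and TAP1, and SLA-7 is at or below -0.01 with each of them.

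The mean of the 9 centred genes placed OA 2 at 0.95 and OA 1 at 0.72 as the highest OA arrays, and OA 3 and OA 4 at -0.56 and -0.74 as the lowest. Among sham arrays sham 1 was highest at 0.57 and sham 4 lowest at -0.62. OA 2, OA 3 and OA 4 lay on the same slide, and so did sham 1 and sham 4. OA 3 and OA 4 were also the dimmest arrays, with a raw 75th percentile of 190 and 156, and OA 2 came next at 203. The part of array brightness in these values was not tested. SLA-6, with the largest spread, weighs most in this mean. Without SLA-6, an alternative chosen after seeing the data, OA 2 and OA 1 were still the highest OA arrays at 0.91 and 0.63 and sham 1 the highest sham array at 0.51, but OA 3 was the lowest OA array at -0.65, ahead of OA 4 at -0.40, and sham 6 at -0.24 and sham 4 at -0.23 were the lowest sham arrays.

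Of 2248 other named genes, the 5 most like this mean over the 14 arrays, after subtracting group means, were PSME1 (r = 0.911), GBP2 (0.889), IRF7 (0.876), PSME2 (0.854) and CCS (0.847). Over all 2248 genes the median r was 0.109 and the 95th percentile 0.608, and 15 genes exceeded 0.8. PSME1 and PSME2 encode the subunits of the PA28 proteasome activator, GBP2 a guanylate-binding protein, IRF7 a transcription factor of the interferon response and CCS the copper chaperone of superoxide dismutase. For PSME1 r was 0.978 on OA arrays, 0.831 on sham arrays and 0.854 without the 2 arrays farthest from the median. GBP2 was 1.98 above its group's mean in OA 2, 1.71 above it in OA 1 and 2.14 above it in sham 1, and 1.32 below it in OA 4, on the log2 scale. Without SLA-6 in the mean, PSME1 (0.936), PSME2 (0.89) and GBP2 (0.872) were again among the first 5, IRF7 ranked 23 (0.818), and UBD (0.904), a ubiquitin-like modifier gene, and CD247 (0.881), a T cell receptor chain gene, joined the first 5. These genes were picked for their likeness, so the values describe them and test nothing.

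**Figure D4:**
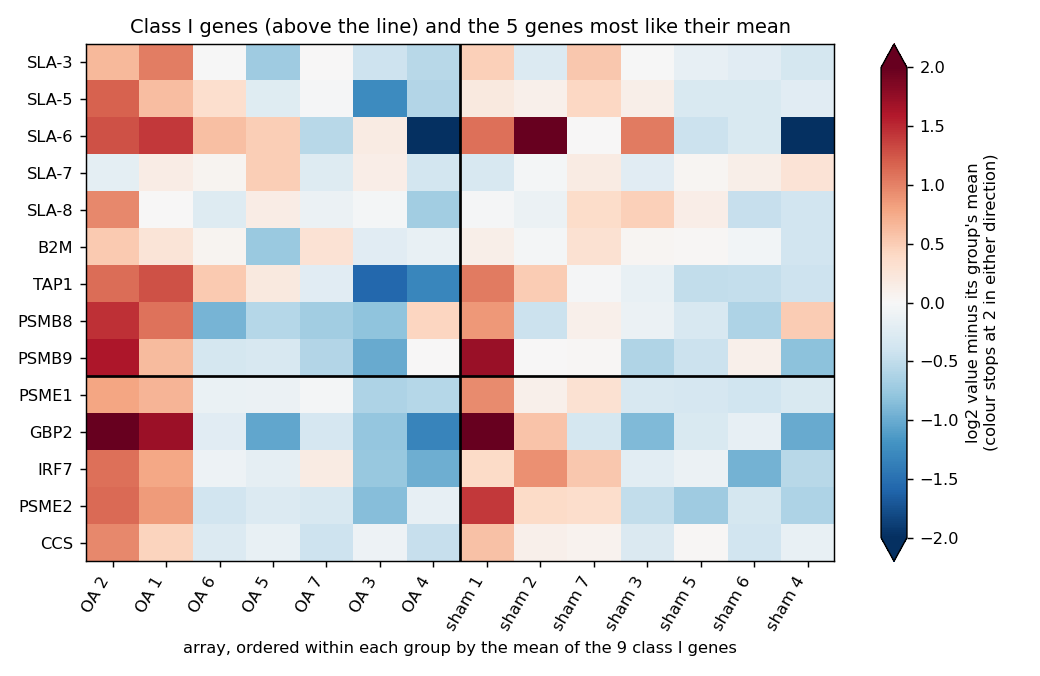
Log2 value minus the group's mean for the 9 class I genes and the 5 genes most like their mean (rows) on the 14 arrays (columns, OA left and sham right, each ordered by the mean of the 9 genes). OA 2, OA 1 and sham 1 are high for most rows and OA 4 and sham 4 are low for most of them.

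Other genes of class I presentation were read from fixed lists. Of 12 genes for assembly, trimming and transport 1 was tested: CALR, the chaperone calreticulin, stood at -0.43 ± 0.29 (SE; log2, limma adjusted p = 0.438). Of 10 tested proteasome genes 0 passed, against 3.23% of named genes, and 0 had an unadjusted limma p under 0.05, against 15.3%. The median log2 difference of the 10 was -0.18. PSMB7, a constitutive catalytic subunit, stood at 0.42 ± 0.20 (limma adjusted p = 0.271) and PSMB3, a structural subunit, at -0.63 ± 0.39 (adjusted p = 0.392). With the class I mean 5 of these 10 had an r over 0.5, against 11.1% of the other named genes, PSME1, PSME2 and the immunoproteasome subunit PSMB10 (0.811) among them.

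Of 14 tested genes of interferon gamma signalling and class I transactivation 1 was lower in OA and 0 were higher, against 0.266% and 2.97% of named genes. The receptor gene IFNGR2, needed for the response to interferon gamma, stood at -0.72 ± 0.16 (SE; log2, limma adjusted p = 0.0191), with 7 of 7 OA arrays below the sham mean. With the slide as a random block it did not pass (limma adjusted p = 0.181), and over its settings the adjusted p ran from 0.000971 to 0.364. The median of the list was -0.07. The transcription factor IRF1 had an r of 0.764 with the class I mean, while IFNGR2 had 0.338 and IFNGR1 -0.07. IFNG, the gene of the cytokine itself, had 0.556 at a mean raw signal of 51.8.

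Of 17 tested interferon-stimulated genes 0 passed, against 3.23% of named genes, and 0 had an unadjusted limma p under 0.05, against 15.3%. The median log2 difference of the 17 was 0.04. The 2 smallest p belonged to the antiviral genes MX2, at 0.58 ± 0.59 (SE; log2, limma adjusted p = 0.629), and RSAD2, at -0.68 ± 0.78 (adjusted p = 0.674). Across arrays the r of the 17 with the class I mean had a median of 0.642 and a range of 0.337 to 0.889. Over all other named genes the median was 0.109. Of the 17, 16 had an r over 0.5, against 11.1% of the other named genes. GBP1 (0.825), the chemokine gene CXCL10 (0.756) and BST2 (0.789) were among them, and EIF2AK2, an RNA-activated kinase, gave the lowest value. Without SLA-6 in the mean, 13 of the 17 had an r over 0.5, against 9.25% of the other named genes. The median of the 17 was then 0.592. Of 5 tested class I-like genes 0 had an r over 0.5, against 11.1% of the other named genes, with a median of -0.01. Without SLA-6 in the mean 1 of the 5 did, against 9.25%, with a median of -0.08. Among the class I-like genes FCGRT, the neonatal Fc receptor that pairs with B2M, stood at 0.22 ± 0.19 (limma adjusted p = 0.561) and PROCR at -0.26 ± 0.25 (adjusted p = 0.613).

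Markers of other cell types were set against the class I mean in the same way. Of 10 tested T and natural killer cell genes 6 had an r over 0.5 with it, CD2 (0.748), CD8A (0.699) and the granzyme gene GZMB (0.641) among them, against 11.1% of the other named genes. The median was 0.542, and CD4 (-0.10), KLRK1 (-0.07) and IL7R (-0.03) of the same list were near 0. CD2 was dim, with a mean raw signal of 17.95, and well above background on 13 arrays. The summed scaled signal of the 10 was 2.23 to 9.61 on OA arrays and 2.19 to 15.4 on sham arrays, where 1 is the array's 75th percentile, and 6 of the 10 were well above background on all arrays. CD3E, a defining T cell gene, had a mean raw signal of 35.96 and CD3D 11.6. Of 6 tested macrophage and dendritic cell genes 1, C1QA, had an r over 0.5 (median 0.257), and their summed scaled signal was 35.5 to 68.6 on OA arrays and 15.4 to 74.9 on sham arrays. Without SLA-6 in the mean the counts were 7 of 10 T and natural killer cell genes and 3 of 6 macrophage and dendritic cell genes. Of the other named genes 9.25% then had an r over 0.5. Neither of the 2 tested B cell genes, none of the 5 endothelial, none of the 4 adipocyte and none of the 7 skeletal muscle genes had an r over 0.5. Between groups 0 T and natural killer, B cell, macrophage or endothelial genes passed, while 1 of 4 adipocyte and 1 of 7 muscle genes were higher in OA, against 2.97% of named genes. These were LEP, at 0.74 ± 0.16 (SE; log2, limma adjusted p = 0.0206), and TNNI1, at 0.71 ± 0.18 (limma adjusted p = 0.0408). With slide as a random block neither passed (limma adjusted p = 0.173 and 0.206), and TNNI1 did not pass with any of 11 of the 14 arrays left out. The other members had both signs. Among adipocyte genes FABP4 stood at 0.74, LPL at 0.16 and ADIPOQ at -0.18. Among muscle genes MYH7 stood at 0.97 (limma adjusted p = 0.0748), MYH2 at 0.37 and CKM at 0.18. ACTA1 stood at -0.38, TNNT1 at -0.31 and TNNC1 at -0.57. TNNI1, MYH7, TNNT1 and TNNC1 were dim, with mean raw signals of 32.8, 34.1, 19.5 and 10.7. TNNT1 was well above background on 12 arrays and TNNC1 on 9. CD247 belongs to none of these lists. Of 3 tested genes for receptors of class I molecules or their coreceptors 0 passed, against 3.23% of named genes. KIR2DL1 stood at -0.35 ± 0.30 (SE; log2, limma adjusted p = 0.555) and KLRK1 at -0.07 ± 0.38 (adjusted p = 0.94). The part of immune cell number in the class I level was not tested.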

How the data were processed

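Per the labels' protocols, TRIzol total RNA from 14 menisci was linearly amplified into Cy3-labelled cRNA. Per the file headers, the deposited intensity values come from Agilent Feature Extraction 11.0.1.1, which gave background-subtracted signals on 43603 probes. They are not normalized between arrays. The authors' series table holds log2 values with a median of 6.00 on every array. They are not centred by gene and increase with the signal (Spearman rho with the scanner signal of at least 0.994). Their normalization method is not given here, and they served as an alternative.

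From the intensities, log2 signals minus the array's 75th percentile were computed, with 82 marked spots set missing. Probes well above background on at least 7 arrays were tested (38813) by limma 3.58.1 in R 4.3.3, with Benjamini-Hochberg adjustment and a threshold of 0.05. The procedure was tested on simulated data. RefSeq accessions matched 5461 probes to 2389 genes of the Sscrofa11.1 table. The probe with the highest mean signal stood for a gene. All member probes are reported; from each list up to 3 called genes, otherwise the 2 with the smallest p, are named, as well as the 5 genes most like the members' mean, and further list genes, chosen after their values were seen, are named with their r. Members and lists were chosen with earlier results of these data known. Nothing says whether samples share a litter, and the number of arrays limits precision. No sequences or coordinates were used here. Normexp correction used the median spot signal, since the planned mean signal is not a column of these files. Same-numbered animals are not described as pairs.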

Additional observations from a re-analysis of the deposited data

Results flagged for a closer look

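In 3 of 48 groups of 7 arrays (24 probes, OA and sham) a single array lay apart from the other 6, by a gap over 0.568 of the group's range; chance alone gives about 1 in 20 groups, or 2.4 here. SLA-6 A_72_P237292 was at -4.85 on OA 4, below the next OA array at -1.99, and that spot was not well above background. SLA-5 A_72_P414498 was at -1.24 on sham 1, below the next sham array at 0.88. PSMB9 A_72_P440071 was at 4.55 on sham 1, above the next sham array at 2.93.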

How the results depend on the processing

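With an array left out in turn, 0 of 24 probes and 0 of 9 genes passed each time, and over all tested probes the calls numbered 730 (without sham 1) to 2709 (without OA 1), against 1448. Among the 24 probes 641 of 701 values under other settings kept their sign and their side of the threshold, and 10 probes never turned sign. With normexp background correction 2 of 24 probes and 1 of 9 genes passed: SLA-7, and SLA-3 A_72_P517623 at -0.80 (limma adjusted p = 0.0432; up to 0.978 over its settings); the cause was not tested. Calls over all probes were 2241 under quantile normalization, 18409 with normexp, 2551 with no filter, 2256 from the authors' table, 148 with scan day and 18 with slide as a random block, 4 with array brightness as a covariate, 236 without slide 4 and 195 without slides 3 and 4; the cause was not tested.

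With a replicate block the calls over all probes were 335, and 0 of 24 class I probes passed. Same-numbered arrays had deviations correlated between -0.19 and 0.27. Since the groups lay on different slides, these values cannot decide whether same-numbered animals were paired.

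Signs turned as follows. Under quantile normalization and from the authors' table, SLA-8 A_72_P070231 stood at -0.0023 and -0.0026, and PSMB9 A_72_P440071 at -0.0098 and -0.010. With normexp, SLA-3 A_72_P682906 stood at -0.069, SLA-8 A_72_P070231 at -0.15, PSMB9 A_72_P440071 at -0.13, TAP1 A_72_P172206 at 0.35, PSMB3 at 0.24 and KLRK1 at 0.35. With array weights, SLA-8 A_72_P070231 stood at -0.016 and PSMB9 A_72_P035551 at -0.083. With slide as a random block, SLA-3 A_72_P625308 stood at 0.013. With brightness as a covariate, SLA-3 A_72_P649741 stood at 0.0080, SLA-3 A_72_P625308 at 0.052, SLA-5 A_72_P414498 at 0.10, SLA-8 A_72_P070231 at -0.12, PSMB9 A_72_P440071 at -0.28, PSMB9 A_72_P035551 at -0.42, PSMB7 at -0.17, RSAD2 at 0.031, KIR2DL1 at 0.44 and KLRK1 at 0.32. Without slides 3 and 4, SLA-3 A_72_P649741 stood at 0.012, SLA-5 A_72_P414498 at 0.39, SLA-8 A_72_P070231 at -0.15, PSMB9 A_72_P440071 at -0.40, PSMB9 A_72_P035551 at -0.46, PSMB7 at -0.075, PSMB3 at 0.0057, FCGRT at -0.11, KIR2DL1 at 0.42 and KLRK1 at 0.32. Without slide 4, SLA-3 A_72_P649741 stood at 0.12, SLA-3 A_72_P625308 at 0.28, SLA-3 A_72_P517623 at 0.054, SLA-6 at 0.15, SLA-8 A_72_P070231 at -0.082, PSMB9 A_72_P440071 at -0.028, PSMB9 A_72_P035551 at -0.00060 and KIR2DL1 at 0.51. As the mean of all probes of a gene, SLA-3 stood at -0.22 and SLA-8 at -0.30. With an array left out, the range was -0.33 to 0.065 for PSMB8 A_72_P088176, -0.41 to 0.010 for PSMB8 A_72_P444948, -0.16 to 0.42 for PSMB9 A_72_P035551, -0.20 to 0.36 for PSMB9 A_72_P440071, -0.23 to 0.086 for SLA-3 A_72_P625308, -0.18 to 0.064 for SLA-3 A_72_P649741, -0.97 to 0.22 for SLA-6, -0.12 to 0.16 for SLA-8 A_72_P070231, -0.30 to 0.022 for SLA-8 A_72_P517672 and -0.26 to 0.11 for KLRK1. The causes of these turns were not tested. IFNGR2 kept its sign in all settings.

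Dim probes limit the reading: TAP1 A_72_P172206 was not well above background on 2 OA arrays and SLA-6 on 1.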

Other observations

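The MHC class II genes, which present peptides to CD4 T cells, were read beside class I. Of 9 tested genes 0 passed the limma threshold, against 3.23% of named genes, 2 had an unadjusted p under 0.05, against 15.3%, and 8 were higher in OA by sign, against 50.5%, with a median log2 difference of 0.24. CD74, the invariant chain that escorts class II molecules, stood at 0.38 ± 0.16 (SE, n = 7 per group, limma adjusted p = 0.197), and SLA-DOB, a chain of a class II chaperone, at 0.38 ± 0.16 (limma adjusted p = 0.21), each above the sham mean on 7 of 7 OA arrays. With normexp background correction SLA-DOB gave 0.64 and passed (limma adjusted p = 0.00156; up to 0.824 over its settings), and with array brightness as a covariate CD74 gave 0.09 (limma adjusted p = 0.953). After subtracting group means, 7 of the 9 had an r over 0.5 with the class I mean over 14 arrays. Among the other named genes 11.1% did. SLA-DOA gave 0.735, SLA-DMB 0.702, SLA-DRB1 0.691 and SLA-DQB1 0.663, whereas SLA-DOB gave -0.06 and CD74 -0.09. The probes of SLA-DOB and CD74 were the dimmest of the 9, with mean raw signals of 41.5 and 318, against 849 for SLA-DOA. The part of probe signal in these values was not tested.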
